A study of Mus musculus with 12 samples.

Results

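Integrins are cell-surface receptors made of 1 alpha and 1 beta chain, and RNA of 9 such chains was followed through 4 sorted populations of mouse bone marrow on the path to basophils. The chains were found by matching gene symbols, and each of the 9 had a row of its own among the 14560 genes listed. They are 9 of the 20 integrin chains of the whole family that the table lists. The alpha chains were Itga2 (CD49b), Itga2b (CD41), Itga4 (CD49d), Itgal (CD11a) and Itgam (CD11b), and the beta chains were Itgb1 (CD29), Itgb2 (CD18), Itgb3 (CD61) and Itgb7.

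Each population had 3 libraries, 12 in all, from C57BL/6 mice, and the series names 3 mice and independent triplicates. DN-GMPs, Pro-BMPs and Pre-BMPs were all sorted as c-Kit+, CD34+ and CD16/32+ cells that lacked Sca1, B220, CD3, Ter119, Gr1 and CD11b. Within that gate DN-GMPs had neither CDH1 (E-cadherin) nor FceRIa (a chain of the IgE receptor), Pro-BMPs had CDH1 alone, and Pre-BMPs had FceRIa and were labelled as lacking CDH1. Basophils had CD49b and FceRIa, and lacked c-Kit, Sca1, B220, CD4, CD8a and Ter119. The gates thus used the proteins of 2 of the chains: progenitors were sorted without CD11b (Itgam), and basophils with CD49b (Itga2). Differences of Itgam and Itga2 RNA between basophils and the progenitors are therefore tied to the sort and are given as description beside their tests. Cdh1 RNA did not follow the CDH1 label: Pro-BMPs held 33.6 to 56.0 CPM (reads per 1000000), Pre-BMPs, labelled as lacking the protein, held 105 to 178, and basophils held 884 to 1201. No age, sex or sorting day is given in the sources used here, and nothing states that a replicate number marks 1 mouse, so a p-value sets differences against the spread of these libraries, which may be technical.

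An integrin reaches the cell surface only as a pair, so a chain without its partner is held inside the cell, and RNA alone does not show the pair. Among the pairs that these chains are known to form, alpha4 beta1 (VLA-4) binds VCAM-1 and fibronectin and helps hold progenitors in the marrow, while alpha4 beta7 binds MAdCAM-1 of gut vessels. AlphaL beta2 (LFA-1) and alphaM beta2 (Mac-1) bind ICAMs, and Mac-1 also binds complement iC3b. Alpha2 beta1 binds collagen. AlphaIIb beta3 is the fibrinogen receptor of platelets.

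CPM are reads per 1000000 of the scaled library size contained in the deposited values. Each library held between 29762981 and 42502405 reads on listed genes, so that 3 reads, the limit that a count of 0 allows, came to 0.0512 to 0.0745 CPM. Intervals and limits from reads cover counting error only. All 12 basophil marker genes that were listed were called higher in basophils than in DN-GMPs, where 23.2% of all genes were. Their summed level ran from 354 to 435 CPM in DN-GMPs and from 41789 to 47313 CPM in basophils. In bulk RNA, fewer cells of a type and less RNA per cell cannot be told apart.

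Every chain differed among the 4 populations (9 of 9, limma moderated F-test, adjusted p under 0.05), against 46.8% of all genes. Itga2 and Itgam are among the 9, and their differences between basophils and progenitors are tied to the sort. The adjusted p ran from 1.01e-08 for Itgb2 to 0.0109 for Itga2. The chains followed different courses: Itga2b and Itgb7 rose at each of the 3 steps, Itga4 rose and then fell, and Itgb1, Itgb2, Itgb3 and Itgam were called at a single step, the last. Itgb2 was also called higher in Pre-BMPs than in DN-GMPs, over the first 2 steps together.

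**Figure D1:**
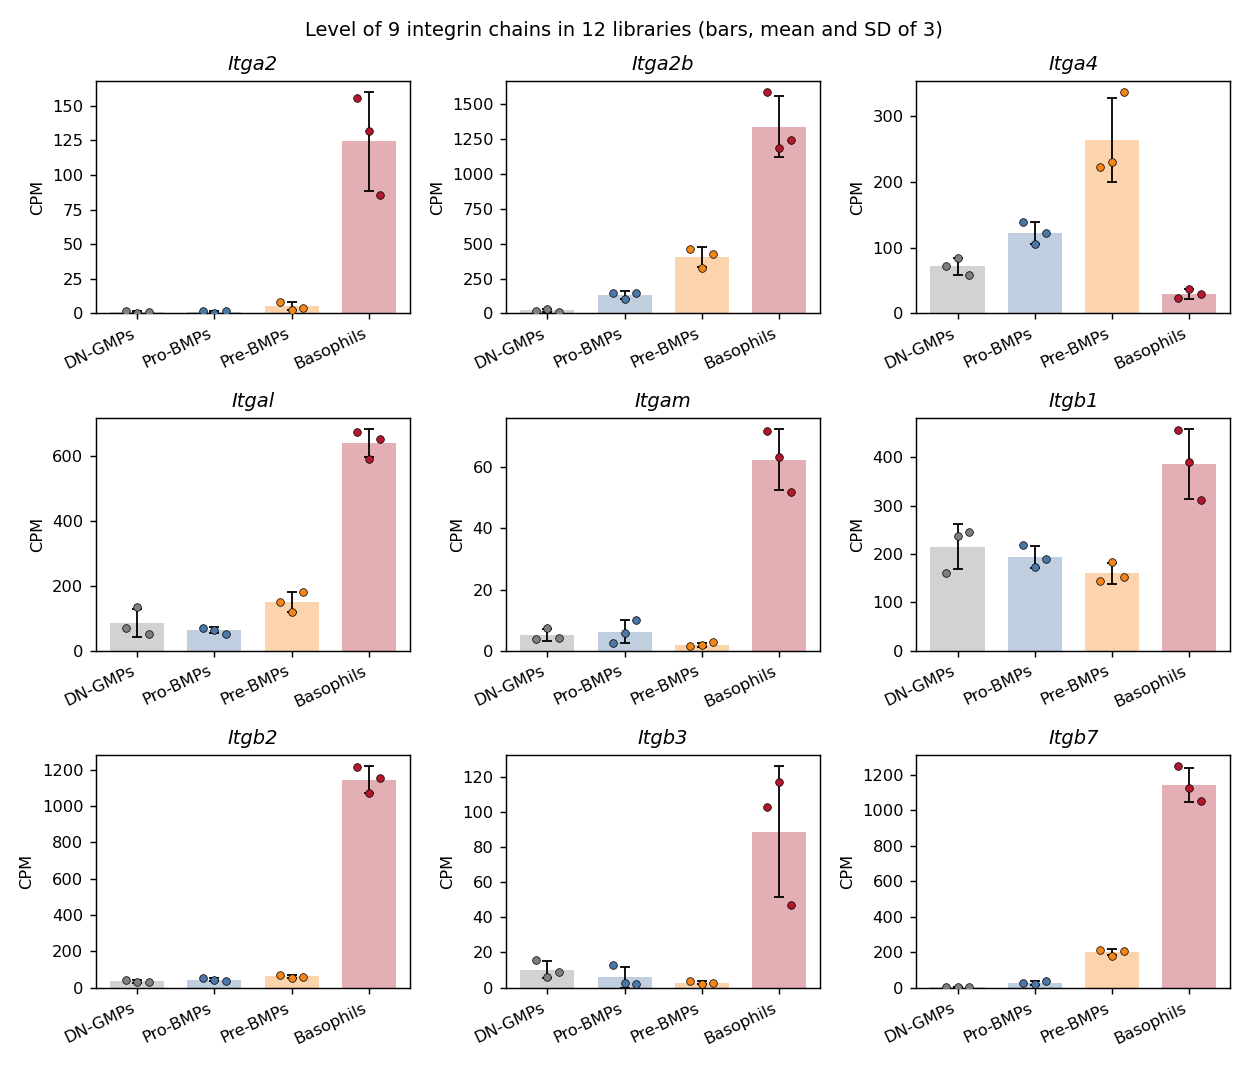
CPM (vertical axes, linear and starting at 0, each chain with its own scale) of the 9 chains in the 4 populations (horizontal axes). Points are libraries, bars the mean and whiskers the SD of 3 (cut at 0). Itga4 is highest in Pre-BMPs, at a mean of 263 CPM, and the other 8 chains are highest in basophils.

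The starting regions of Itga2b and Itgb7, the 2 chains that rose at every step, are shown with that of Itga4, which did not follow them. Sequences are from RefSeq on GRCm38.p6, from 250 bases before the start site to 50 bases from it, 5′ to 3′ along the gene. Of the 9 chains 6 had an entry. Capitals mark GATAA (GATA factors), GGAAG (ETS factors) and TGTGG (RUNX factors) on either strand, the reverse complement being in capitals too.
Itga2b, minus strand, chr11:102469834-102470133: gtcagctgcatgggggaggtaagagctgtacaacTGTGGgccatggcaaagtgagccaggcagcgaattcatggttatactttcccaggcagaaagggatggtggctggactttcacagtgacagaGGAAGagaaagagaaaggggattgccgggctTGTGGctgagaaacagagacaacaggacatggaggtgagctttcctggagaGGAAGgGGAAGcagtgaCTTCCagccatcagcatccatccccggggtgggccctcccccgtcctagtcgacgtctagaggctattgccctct
Itgb7, minus strand, chr15:102231886-102232185: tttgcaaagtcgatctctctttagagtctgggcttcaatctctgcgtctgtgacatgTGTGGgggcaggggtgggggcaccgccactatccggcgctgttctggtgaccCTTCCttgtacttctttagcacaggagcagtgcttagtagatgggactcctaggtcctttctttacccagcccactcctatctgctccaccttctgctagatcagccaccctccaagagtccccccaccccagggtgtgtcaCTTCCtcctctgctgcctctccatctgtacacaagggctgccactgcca
Itga4, plus strand, chr2:79255176-79255475: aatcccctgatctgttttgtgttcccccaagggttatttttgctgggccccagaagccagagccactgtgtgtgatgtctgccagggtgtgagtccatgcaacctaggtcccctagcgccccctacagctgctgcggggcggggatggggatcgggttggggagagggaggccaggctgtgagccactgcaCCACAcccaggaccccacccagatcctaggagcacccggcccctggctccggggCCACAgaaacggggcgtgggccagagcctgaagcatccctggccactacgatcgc
The ETS letters were found 4 times in the Itga2b window, 2 times in that of Itgb7 and 0 times in that of Itga4, and 71.4% of the 32851 windows of this length hold them. The RUNX letters were found 2, 1 and 2 times, against 55.9% of windows with at least 1. GATAA, the only form of the GATA letters looked for, was found in none of the 3 windows, and 25.4% of all windows hold it. The other 3 chains with an entry are not printed: the ETS letters were found 2 times each for Itgb1 and Itgam, as for Itgb7, and 0 times for Itga2, so that their number did not separate the chains that rose at every step. These are matches of letters within 300 bases only.

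Itga2b (ENSMUSG00000034664, GRCm38 chromosome 11, 102453297 to 102470122) encodes alphaIIb, which is best known from megakaryocytes and platelets. It stood at 19.2, 32.3 and 12.9 CPM in the DN-GMP libraries and at 146, 103 and 147 in Pro-BMPs. In Pre-BMPs it stood at 465, 325 and 426 CPM, and in basophils at 1588, 1189 and 1245. No library of a population overlapped those of the population before it. The first step measured 2.70 in log2 units (SE 0.285; limma adjusted p = 2.21e-04). The second step measured 1.62 (limma adjusted p = 0.0048) and the third 1.73 (limma adjusted p = 8.66e-04). With a mean of 1341 ± 216 CPM (SD, n = 3), Itga2b had more reads in basophils than any other of the 9 chains, a ranking of reads that gene length also enters.

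Itgb3 (ENSMUSG00000020689, chromosome 11, 104608000 to 104670476) encodes beta3, the only known partner of alphaIIb. It did not follow Itga2b through the progenitors. The DN-GMP libraries held 15.7, 5.99 and 9.19 CPM, the Pro-BMP libraries 12.9, 2.89 and 2.15, and the Pre-BMP libraries 3.58, 2.34 and 2.70. Pro-BMP replicate 1 stood apart, and the Pro-BMP mean of 5.97 was 2.52 without it. Neither early step was called, with changes of -1.14 (95% interval -2.53 to 0.25) and -0.61 (-2.00 to 0.79) on the log2 scale. Pre-BMPs all lay below DN-GMPs, by a change of -1.75 (SE 0.634), which was not called (limma adjusted p = 0.073) but was with quantile normalization, with these populations alone and without Pro-BMP replicate 1 (limma adjusted p from 0.0203 to 0.0437). In basophils Itgb3 stood at 103, 117 and 46.8 CPM, above every progenitor library. Itgb3 rose there by 4.86 in log2 units over Pre-BMPs (SE 0.634; limma adjusted p = 1.68e-04).

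Within a library the ratio of Itga2b reads to Itgb3 reads, which no scaling of libraries can move, was 1.22, 5.39 and 1.40 in DN-GMPs and 11.4, 35.5 and 68.0 in Pro-BMPs. It reached 130, 138 and 157 in Pre-BMPs and was 15.5, 10.2 and 26.6 in basophils. Pre-BMPs were above all other libraries, and Pro-BMPs overlapped basophils. The ratio differed among the 4 populations (exact permutation test over 369600 assignments of 12 libraries, two-sided, p = 3.90e-04, adjusted over 4 ratios 7.79e-04).

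Other megakaryocyte and platelet genes were read beside these values. The summed level of the 12 listed of 14 such markers was 270 to 287 CPM in DN-GMPs and 257 to 290 in Pro-BMPs. It was 488 to 537 in Pre-BMPs, and basophils had 550 to 641. Most of it was Nfe2, a transcription factor that is not confined to platelets, at 555 ± 49.5 CPM in basophils (SD, n = 3). Pf4, Treml1 and Clec1b, which mark platelets and megakaryocytes, had 0 reads in all basophil libraries, and Gp9 stood at 0, 0 and 1.41 CPM there. Other genes of the list did not stand at 0 in basophils: Gp1ba, a chain of the platelet receptor for von Willebrand factor, stood at 13.8, 22.5 and 24.4 CPM, against 3.44, 0 and 4.10 in DN-GMPs. Rab27b stood at 5.25, 16.4 and 16.4 CPM in basophils, and Gp5 at 3.86, 5.92 and 1.43. In basophils against DN-GMPs 2 of the 12 were called higher and 5 lower, where 23.2% of all genes were called each way. For Pre-BMPs against Pro-BMPs 1 was called higher and 0 lower, where 4.80% and 4.69% of all genes were. The median log2 change of the 12 was then 2.01, beside 0.02 over all genes, so the rise of that sum was not confined to Nfe2. The part of such cells in the Itga2b level was not tested.

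Itgb7 (ENSMUSG00000001281, chromosome 15, 102215995 to 102231944) encodes beta7, the partner of alpha4 in gut-homing cells. It stood at 4.99, 3.29 and 5.31 CPM in DN-GMPs and at 26.3, 17.9955 and 38.9 in Pro-BMPs. Pre-BMP libraries held 212, 180 and 206, and basophil libraries 1246, 1126 and 1053. The libraries of the 4 populations did not overlap. Its log2 change was 2.57 at the first step (SE 0.257, limma adjusted p = 1.45e-04), 2.91 at the second (limma adjusted p = 5.90e-05) and 2.52 at the third (limma adjusted p = 2.79e-05). Over the whole path it came to 8.0005 (SE 0.257, limma adjusted p = 2.80e-09).

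Itga4 (ENSMUSG00000027009, chromosome 2, 79255426 to 79333123) encodes alpha4, the shared partner of beta1 and beta7. It stood at 72.2, 84.3 and 57.7 CPM in DN-GMPs and at 139, 105 and 122 in Pro-BMPs. Pre-BMP libraries held 222, 230 and 336, and basophil libraries 23.2, 37.7 and 29.0. All Pro-BMP libraries lay above all DN-GMP libraries, but the change of 0.78 on the log2 scale (95% interval 0.29 to 1.27) was not called (limma adjusted p = 0.114). At the next step it rose by 1.09 (SE 0.222, limma adjusted p = 0.0106), a call lost without Pro-BMP replicate 2 (limma adjusted p = 0.0504). In basophils it fell by 3.13 in log2 units (SE 0.222; limma adjusted p = 1.83e-06), to below every progenitor library. In the fit of all 12 libraries with the deposited values no other of the 9 chains was called lower, while Itgam, Itgb1 and Itgb3 were called lower in some alternatives, given with each chain. Cerkl, a gene on the other strand, shares 1124 exon bases with Itga4 in the annotation used here, and the libraries do not mark strand. Cerkl itself stood at 5.09 ± 0.362 CPM in Pre-BMPs and 3.03 ± 1.44 in basophils (SD, n = 3).

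Itgb1 (ENSMUSG00000025809, chromosome 8, 128685654 to 128733200) encodes beta1, which pairs with alpha2, alpha4 and many other alpha chains. It was the steadiest of the chains: 161, 238 and 245 CPM in DN-GMPs and 218, 172 and 189 in Pro-BMPs. Pre-BMP libraries held 144, 184 and 152, and basophil libraries 456, 391 and 312. Libraries of the progenitor populations overlapped, and no comparison among them was called. Without DN-GMP replicate 1, Pre-BMPs were called lower than DN-GMPs, at -0.60 on the log2 scale (limma adjusted p = 0.0329). The changes were -0.13 (95% interval -0.54 to 0.27) at the first step and -0.27 (-0.68 to 0.13) at the second. Basophils lay above all progenitors, with a rise of 1.26 from Pre-BMPs (SE 0.184, limma adjusted p = 3.85e-04).

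The 2 beta partners of alpha4 were compared within each library. Itgb7 reads per Itgb1 read were 0.0311, 0.0139 and 0.0218 in DN-GMPs and 0.121, 0.105 and 0.205 in Pro-BMPs. Pre-BMP libraries had 1.47, 0.978 and 1.36, and basophil libraries 2.73, 2.88 and 3.38. The ratio went up from each population to the next with no overlap of libraries. It differed among the 4 populations with the smallest p that the exact permutation test allows (two-sided p = 6.49e-05, adjusted over 4 ratios 2.60e-04).

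**Figure D2:**
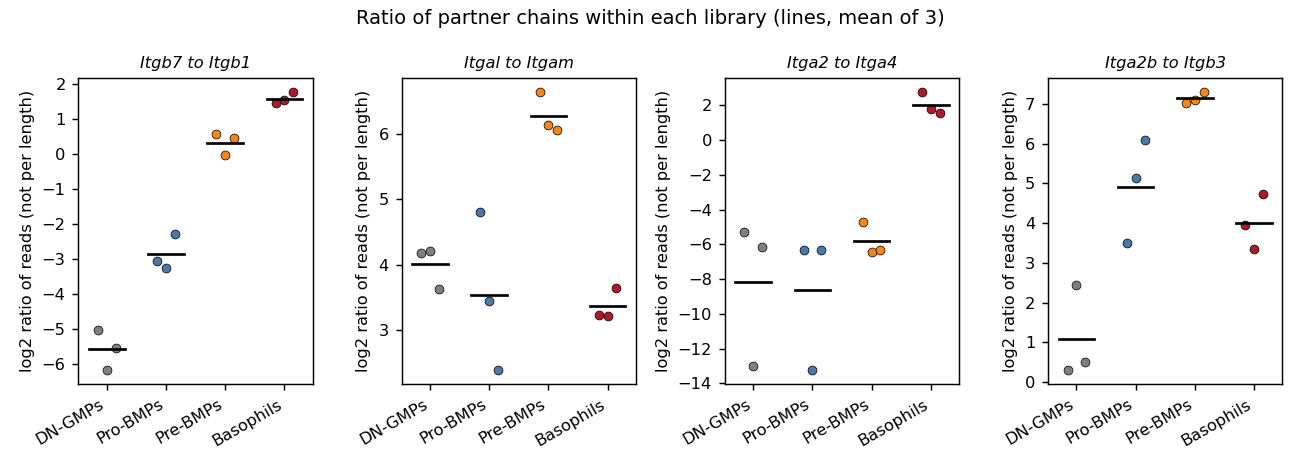
Log2 of the ratio of reads of 2 chains within each library (vertical axes, not corrected for gene length) by population (horizontal axes). Points are libraries and lines the mean of 3. The Itgb7 to Itgb1 ratio goes up at each step, and the Itga2b to Itgb3 ratio peaks in Pre-BMPs, at 130 to 157 reads of Itga2b per read of Itgb3.

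Itgb2 (ENSMUSG00000000290, chromosome 10, 77530252 to 77565708) encodes beta2, the common chain of the leukocyte integrins. Its libraries held 43.2, 32.0 and 30.4 CPM in DN-GMPs and 52.7, 39.4 and 38.6 in Pro-BMPs. Pre-BMP libraries held 70.5, 53.5 and 61.1, and basophil libraries 1212, 1068 and 1155. Basophils stood far above all progenitors, with a rise of 4.22 in log2 units from Pre-BMPs (SE 0.171; limma adjusted p = 5.96e-08). Among progenitors, Pre-BMPs were higher than DN-GMPs by 0.82 (SE 0.171, limma adjusted p = 0.00573). The single steps, of 0.31 (95% interval -0.06 to 0.68) and 0.51 (0.13 to 0.88), were not called.

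Itgal (ENSMUSG00000030830, chromosome 7, 127296260 to 127335138) encodes alphaL of LFA-1. It stood at 68.0, 135 and 51.4 CPM in DN-GMPs and at 70.5, 63.3 and 52.2 in Pro-BMPs. Pre-BMP libraries held 150, 119 and 180, and basophil libraries 674, 591 and 651. DN-GMPs overlapped Pro-BMPs and Pre-BMPs. Pre-BMPs exceeded Pro-BMPs by 1.26 in log2 units (SE 0.289, limma adjusted p = 0.0201). That call was lost without Pro-BMP replicate 2 or 3, without Pre-BMP replicate 1 or 3 and without a mean-variance trend (limma adjusted p from 0.0544 to 0.0852). Pre-BMPs against DN-GMPs, at 0.92 (limma adjusted p = 0.0419), lost its call in 13 of 21 alternatives, with limma adjusted p up to 0.147. Its last step, a rise by 2.11 (SE 0.289, limma adjusted p = 2.42e-04), was called in every alternative run.

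Itgam (ENSMUSG00000030786, chromosome 7, 128062640 to 128118491) encodes alphaM of Mac-1, the CD11b that the progenitor gate excluded. It stood at 3.76, 7.27 and 4.17 CPM in DN-GMPs and at 2.51, 5.82 and 10.1 in Pro-BMPs. Pre-BMP libraries held 1.48, 1.67 and 2.68, and basophil libraries 72.0, 63.5 and 52.0. All progenitor libraries were low, though none was at 0. The change of -1.49 from Pro-BMPs to Pre-BMPs (SE 0.49) was not called (limma adjusted p = 0.0868), but it was without Pro-BMP replicate 1 (limma adjusted p = 0.0219) and with quantile normalization (limma adjusted p = 0.0482). Against DN-GMPs the change of -1.36 was not called (limma adjusted p = 0.071), but it was with quantile normalization and without Pro-BMP replicate 1 or 3 (limma adjusted p from 0.029 to 0.0472). At the last step it rose by 5.04 (SE 0.49, limma adjusted p = 1.92e-05). In the annotation used here 3450 exon bases of Itgam are shared with Gm49368, a gene on the same strand that was not among the rows used here. Reads there could have been counted as ambiguous, depending on the annotation the authors used.

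Of the alpha partners of beta2, the 2 that are among the 9 chains were compared in the same way. Itgal reads per Itgam read were 18.1, 18.5 and 12.3 in DN-GMPs and 27.9, 10.9 and 5.19 in Pro-BMPs. Pre-BMP libraries had 100.05, 70.7 and 67.0, and basophil libraries 9.36, 9.30 and 12.5. Pre-BMPs were above all other libraries, and the other populations overlapped. The ratio differed among the 4 populations (exact permutation test, two-sided, p = 0.0106, adjusted over 4 ratios 0.0106). Progenitors were sorted without CD11b, the product of Itgam, so the difference between them and basophils is tied to the sort. Markers of other cells that carry much beta2 were read beside these values. The summed level of 16 neutrophil markers was 3846 to 4787 CPM in basophils, 5398 to 6606 in Pre-BMPs, 17705 to 19697 in Pro-BMPs and 18964 to 21850 in DN-GMPs. Among them Ly6g, which marks mature neutrophils, stood at 1.71, 0 and 0 CPM in basophils, while the chemokine receptor Cxcr2 stood at 810, 712 and 538. Most of the basophil sum was Mpo (mean 2362 CPM) and Ctsg (1188). Of the 16, 3 were called higher and 3 lower in basophils than in Pre-BMPs, where 13.9% and 16.5% of all genes were. Against DN-GMPs 7 were called higher and 6 lower, where 23.2% of all genes were called each way. The summed level of 9 listed monocyte and dendritic cell markers was 435 to 571 CPM in basophils, 170 to 219 in Pre-BMPs, 387 to 503 in Pro-BMPs and 2136 to 2528 in DN-GMPs. In basophils most of that sum was Ccr2 (mean 302 CPM) and Ms4a6c (138), while Irf8 stood at 0.956 and Flt3 had 0 reads. Against Pre-BMPs, basophils had 3 of the 9 called higher and 4 lower, where 13.9% and 16.5% of all genes were. The part of such cells in the result was not tested.

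Itga2 (ENSMUSG00000015533, chromosome 13, 114833081 to 114932100) encodes alpha2, the CD49b of the basophil gate. It was nearly unread in early progenitors, at 1.85, 0 and 0.795 CPM in DN-GMPs and 1.70, 0 and 1.54 in Pro-BMPs. In Pre-BMPs it stood at 8.36, 2.63 and 4.25 CPM and in basophils at 155, 132 and 85.2. All Pre-BMP libraries lay above all Pro-BMP libraries, and all basophil libraries above all Pre-BMP libraries. Because of the libraries at 0, the spread was wide. The change into Pre-BMPs measured 3.90 in log2 units (95% interval -0.62 to 8.41) and was not called. The step to basophils was 4.73 (0.21 to 9.24, limma adjusted p = 0.108). That step was called in 7 of 21 alternatives, among them voom weights (limma adjusted p = 3.65e-04) and 2 reads added (limma adjusted p = 0.0319), and its limma adjusted p reached 0.231 in others. Basophils against DN-GMPs was called, at 8.92 (SE 2.06, limma adjusted p = 0.00415). Its size rested on the library at 0: the change was 6.62 without DN-GMP replicate 2 (limma adjusted p = 0.0128). It was 10.4 without DN-GMP replicate 1 and 9.77 without DN-GMP replicate 3. Against Pro-BMPs it was 8.62, or 6.21 without Pro-BMP replicate 2, 9.87 without replicate 1 and 9.79 without replicate 3.

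The 2 alpha chains of beta1 changed places. Itga2 reads per Itga4 read were 0.0257, 1.22e-04 and 0.0140 in DN-GMPs and 0.0123, 1.02e-04 and 0.0127 in Pro-BMPs, with 0.5 read added to each chain. Pre-BMP libraries had 0.0377, 0.0115 and 0.0127, and basophil libraries 6.71, 3.49 and 2.94. Every basophil library lay above every progenitor library, and the progenitor populations overlapped. The ratio differed among the 4 populations (exact permutation test, two-sided, p = 0.00935, adjusted over 4 ratios 0.0106). Basophils were sorted with CD49b, the product of Itga2, so the difference between them and the progenitors is tied to the sort. CD49b is also carried by natural killer cells, and 2 of 16 natural killer and T cell markers were listed, Klrk1 and Prf1. Their summed level was 0.648 to 5.13 CPM in basophils and 3.90 to 6.61 in DN-GMPs, and the part of such cells in the Itga2 level was not tested.

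Read step by step, Pro-BMPs against DN-GMPs had 2 of 9 chains higher and 0 lower by limma (3 and 0 at an unadjusted p under 0.05, and 2 and 0 with voom weights), where 2.53% of all genes were called (2.00% higher and 0.536% lower). Libraries did not overlap for 3 chains, Itga2b, Itga4 and Itgb7, against 18.7% of all genes. Pre-BMPs against Pro-BMPs had 4 chains higher and 0 lower (5 and 1 at an unadjusted p under 0.05, and 4 and 0 with voom weights), where 9.49% of all genes were called (4.80% higher and 4.69% lower), and 2 of them, Itga2b and Itgb7, remained without Pro-BMP replicate 2. Basophils against Pre-BMPs had 7 higher and 1 lower (8 and 1 with voom weights), where 30.4% of all genes were called (13.9% higher and 16.5% lower), and libraries did not overlap for any of the 9, against 46.5% of all genes. The median change of the chains was 0.29, 1.09 and 2.52 on the log2 scale at the 3 steps, beside 0.02, 0.02 and -0.10 over all genes. Comparisons of the same populations share libraries, so the steps are not independent. Over longer spans, Pre-BMPs against DN-GMPs had 5 higher and 0 lower (21.9% of all genes called, 12.2% higher and 9.69% lower; 5 and 3 at an unadjusted p under 0.05, and 5 and 0 with voom weights), and basophils against Pro-BMPs and against DN-GMPs each had 8 higher and 1 lower (41.1% and 46.4% of all genes called). Libraries did not overlap for 7 chains in the first of these spans and for all 9 in the others, against 39.1%, 53.4% and 54.1% of all genes. In basophils 19.3% of all genes were called higher and 21.8% lower than in Pro-BMPs, and 23.2% each way than in DN-GMPs. Itga2 and Itgam, whose proteins the gates used, enter the counts, overlaps and medians of basophils against any progenitor population. At the last step Itgam is among the 7 higher, and Itga2 joins with voom weights. That part of the counts is tied to the sort.

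**Figure D3:**
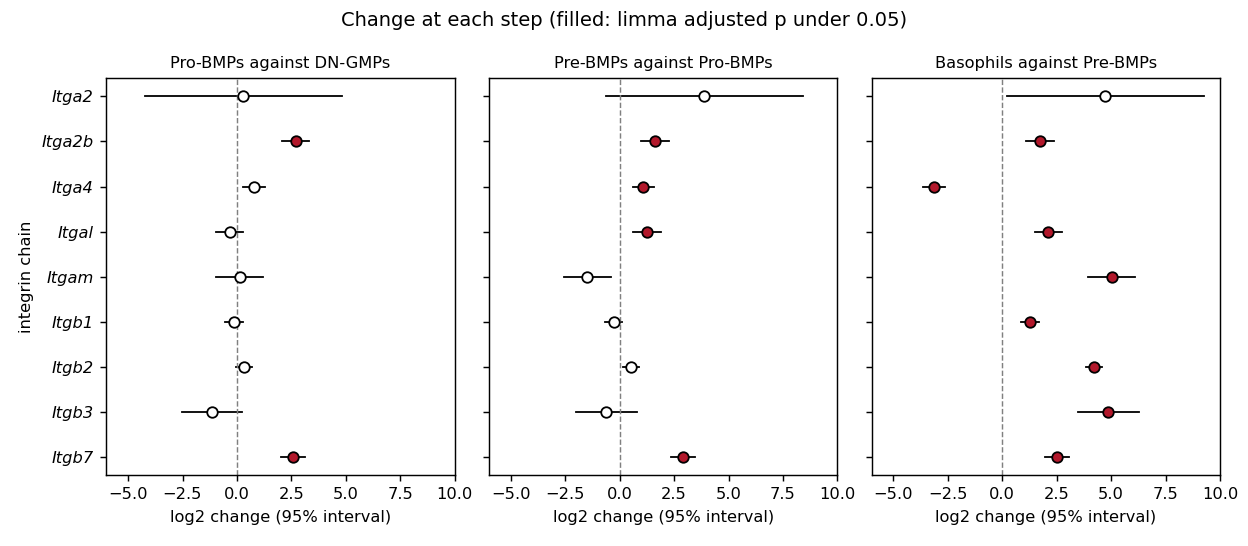
Log2 change of the 9 chains (vertical axis) at the 3 steps (panels), with 95% intervals before adjustment (horizontal axes). Filled points have a limma adjusted p under 0.05. Itga2b and Itgb7 are filled in all 3 panels, Itga4 lies at -3.13 at the last step, and Itga2 has the widest intervals.

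Scaling bears on the last step. With libraries scaled by their total on listed genes, the median change of all genes at that step was -0.42 in log2 units in place of -0.10. The same 7 chains higher, Itgam of the progenitor gate among them, and 1 lower were counted under that scaling and under quantile normalization. The median of the chains was then 2.20 and 1.95.

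Which pairs a stage can form was read from both chains together. A chain counted as read where all 3 libraries held at least 1 CPM. By that measure 5 of 6 pairs had both chains in DN-GMPs and in Pro-BMPs, the missing one being alpha2 beta1, and all 6 had both in Pre-BMPs and in basophils. The count depended on the level asked for. At 5 CPM it was 3 pairs in each progenitor population and 6 in basophils. The 3 were alphaIIb beta3, alpha4 beta1 and alphaL beta2 in DN-GMPs, and alpha4 beta1, alpha4 beta7 and alphaL beta2 in Pro-BMPs and Pre-BMPs. At 20 CPM it was 2, 2, 3 and 6, and the pair that Pre-BMPs then had beyond alpha4 beta1 and alphaL beta2 was alpha4 beta7. At 5 CPM and at 20 CPM only basophils had alpha2 beta1 and alphaM beta2. The alpha chains of these pairs are CD49b and CD11b, which the gates used, so this part of the count is tied to the sort.

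To compare chains with each other, levels were divided by exon length in kilobases, and the lower of the 2 chains was taken as the level of the pair. No test was made of these levels. AlphaL beta2 stood at 9.55 ± 1.495, 9.44 ± 1.40, 20.1 ± 2.62 and 97.2 ± 6.49 CPM per kilobase in the 4 populations in their order along the path (SD, n = 3). By exon length it had the highest mean of the 6 pairs in every population, by less than 1 SD in Pro-BMPs and Pre-BMPs, where the alpha4 pairs came next. Alpha4 beta1 stood at 5.11 ± 0.954, 8.73 ± 1.20, 18.8 ± 4.56 and 2.14 ± 0.525, with alpha4 the lower chain in all 12 libraries by exon length. Alpha4 beta7 stood at 1.64 ± 0.392, 8.24 ± 1.56, 18.8 ± 4.56 and 2.14 ± 0.525. In Pre-BMPs and basophils alpha4 was the lower chain of both its pairs by exon length, so the same Itga4 reads set both levels. Each is thus a limit for that pair alone, and the 2 cannot be added.

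In alpha4 beta7 the lower chain changed over. It was beta7 in all DN-GMP libraries and alpha4 in all Pre-BMP and basophil libraries, and Pro-BMP libraries were mixed. In basophils the mean of Itgb7, 412 ± 35.2 CPM per kilobase, stood beside 2.14 ± 0.525 for Itga4. By exon length alphaIIb beta3 was held by beta3 in every library, at 1.74 ± 0.837, 1.01 ± 1.01, 0.487 ± 0.108 and 15.05 ± 6.28, while alphaIIb stood at 245.8 ± 39.6 in basophils. AlphaM beta2 was held by alphaM, at 1.01 ± 0.382, 1.22 ± 0.753, 0.387 ± 0.128 and 12.4 ± 2.00. Alpha2 beta1 was held by alpha2, at 0.123 ± 0.13, 0.151 ± 0.131, 0.712 ± 0.414 and 17.4 ± 4.9996.

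**Figure D4:**
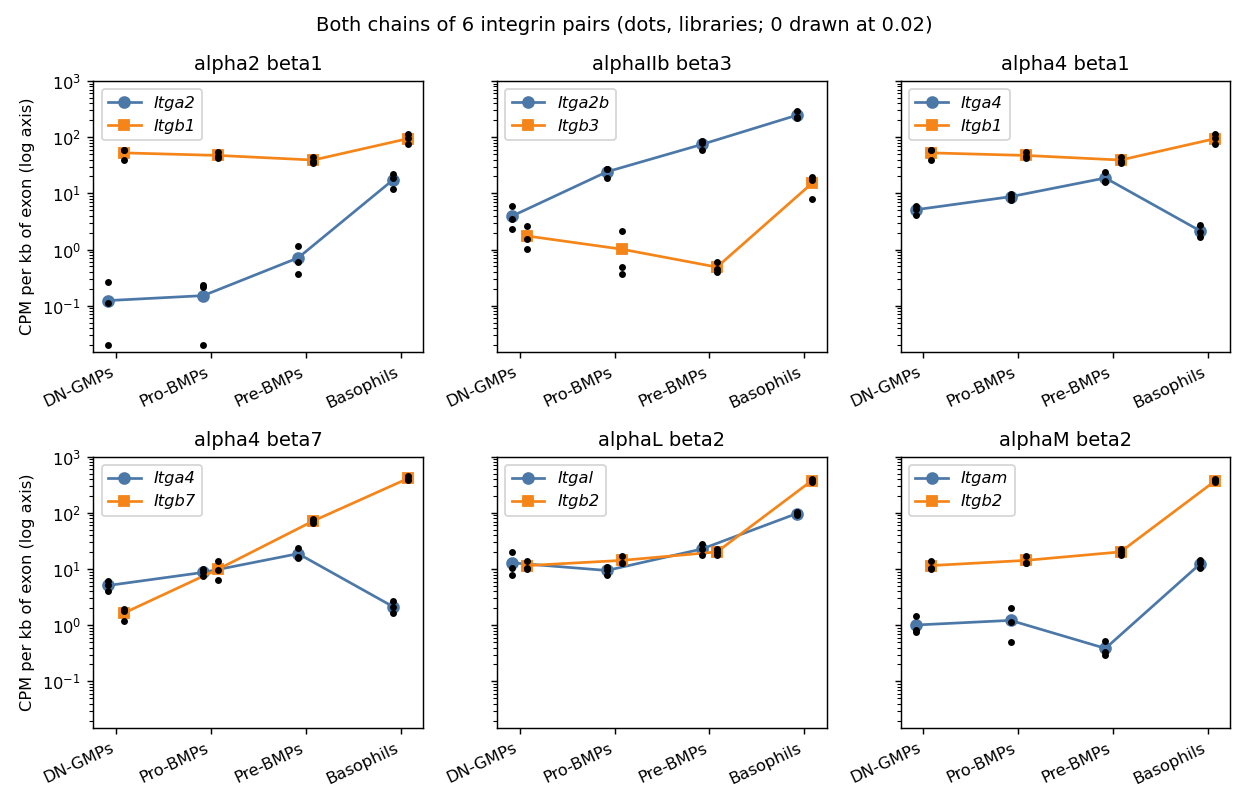
CPM per kilobase of exon (vertical axes, log scale) of the alpha and the beta chain of 6 pairs by population (horizontal axes). Lines join means of 3 libraries and dots are libraries, with 0 drawn at 0.02. The lines of Itga4 and Itgb7 cross between DN-GMPs and Pre-BMPs, and Itgb3 lies below Itga2b throughout.

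Exon length includes untranslated parts, which are long in Itga4 (13978 bases of exon, 3096 of them in its longest coding sequence). With coding length in place of exon length, a choice made after the lengths were seen, the order of the 4 populations was the same for 5 of the pairs. The order of the pairs was not: alpha4 beta1 then lay above alphaL beta2 in DN-GMPs (23.1 and 15.2), Pro-BMPs (39.4 and 17.0) and Pre-BMPs (65.9 and 26.7). The highest mean in Pre-BMPs was then that of alpha4 beta7, at 77.1 ± 7.26 beside 65.9 ± 7.42 for alpha4 beta1. In alphaL beta2, Pro-BMPs then lay above DN-GMPs (17.0 and 15.2). The lower chain was then mixed among libraries for alpha4 beta1 in Pre-BMPs and for alphaIIb beta3 in DN-GMPs, and it was beta2 for alphaL beta2 in all DN-GMP and Pre-BMP libraries. The lower chain of alpha4 beta7 was then beta7 in all Pro-BMP libraries and mixed in Pre-BMPs, and in basophils it was alpha4 under both lengths.

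Of 18 other integrin chains 11 were listed and tested. At the first step 0 were called by limma (also 0 at an unadjusted p under 0.05 and 0 with voom weights). At the second step, where 9.49% of all genes were called, 1 was higher, Itgax (CD11c), named outside the rule, which had 0 reads in DN-GMPs and stood at 4.39, 2.20 and 7.16 CPM in Pre-BMPs. From Pre-BMPs to basophils 6 rose and 2 fell, where 30.4% of all genes were called (13.9% higher and 16.5% lower). Itga1, another collagen-binding alpha chain of beta1, stood at 0, 0 and 3.10 CPM in Pre-BMPs and 141, 96.4 and 56.3 in basophils (limma adjusted p = 0.00583). Itga8, whose product also pairs with beta1, stood at 0.712, 0 and 0 and at 40.2, 33.5 and 25.7 (limma adjusted p = 5.92e-04). Itga5, the fibronectin receptor chain, fell by 0.96 on the log2 scale (limma adjusted p = 0.0178), a call lost without Pre-BMP replicate 1 or basophil replicate 3 (limma adjusted p up to 0.0664).

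Integrins bind firmly only after talin and kindlin join the tail of the beta chain, which links the receptor to actin. Of 40 genes for activation and adhesion adaptors 32 were listed. At the first step, with 2.53% of all genes called, 1 rose, Fyb, the adaptor ADAP (1.27 on the log2 scale, limma adjusted p = 0.0125), a call lost with voom weights and with these populations alone (limma adjusted p up to 0.145). At the second, with 9.49% of all genes called, 3 rose and 1 fell: Fyb went from 27.0 ± 8.90 to 114 ± 4.50 CPM (SD, n = 3), and Rasgrp2, an activator of the small GTPase Rap1, from 177 ± 5.26 to 92.9 ± 15.1. Zyx and Parvg rose by 0.66 and 0.56, and the call of Parvg was lost without Pro-BMP replicate 2, without Pre-BMP replicate 1 and without a mean-variance trend (limma adjusted p from 0.0532 to 0.0714).

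From Pre-BMPs to basophils 22 of the 32 rose and 0 fell (25 and 0 at an unadjusted p under 0.05, and 22 and 0 with voom weights), or 18 and 1 with libraries scaled by their total on listed genes and 19 and 1 with quantile normalization. Of all genes 13.9% were called higher and 16.5% lower at that step. The median change was 0.83 on the log2 scale, beside -0.10 over all genes. Skap1, a partner of ADAP, stood at 0, 0.0192 and 0 CPM in Pre-BMPs and 170, 105 and 98.6 in basophils (limma adjusted p = 8.92e-05). Vinculin (Vcl) and zyxin (Zyx) rose by 2.80 and 2.31. Tln1 (talin) and Fermt3 (kindlin-3), named for their role and outside the rule, rose by 1.54 and 0.75, and the call of Fermt3 was lost with quantile normalization (limma adjusted p = 0.0871).

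Of 26 ligand genes in the list 17 had a row. At the first step 2 rose and 0 fell, at the second 2 rose and 2 fell, and at the third 4 rose and 3 fell, where 2.53%, 9.49% and 30.4% of all genes were called. Cdh1, whose product E-cadherin is a ligand of alphaE beta7 and was used in the sort, was called higher at each step, by 8.97, 1.78 and 2.86 in log2 units (limma adjusted p = 1.55e-06, 0.0449 and 0.00115). Its first call was lost with voom weights (limma adjusted p = 0.114), and its second in 11 of 21 alternatives (limma adjusted p up to 0.152). Icam4, a ligand of several integrins, stood at 3.45 ± 1.93, 22.2 ± 4.50, 86.6 ± 1.21 and 22.0 ± 4.31 CPM in the 4 populations in order (SD, n = 3). Spp1, osteopontin, rose from 3.80 ± 1.59 in Pre-BMPs to 81.4 ± 6.36 CPM in basophils (limma adjusted p = 6.52e-06). Lamb1, a laminin chain, stood at 0.32 ± 0.259 and 92.5 ± 64.1 (limma adjusted p = 6.36e-04). Thbs1 had 97.0, 3.32 and 22.6 CPM in Pro-BMPs and 0 reads in all Pre-BMP and basophil libraries, and its fall at the second step was not called with voom weights (limma adjusted p = 0.203). C3, complement component 3, fell at that step from 63.2 ± 10.2 to 11.9 ± 6.17.

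Genes whose log2 values ran most like those of a chain over the 12 libraries were looked for among 9741 genes with a mean of at least 5 CPM. For Itga2b they were Myo1d, Csf1 and Gpr34 (Pearson r 0.995, 0.994 and 0.992). For Itgb7 they were Ier3, Padi2 and Vezf1 (0.995, 0.991 and 0.991), and for Itgb2 Alox5ap, Nedd4 and Cd53 (0.995, 0.994 and 0.993). For Itga4, with its peak in Pre-BMPs, they were Pot1a, Tia1 and Hmgb3 (0.968, 0.965 and 0.964). Itgal ran most like Esyt1 (0.984), Itgam like Atp6v0b (0.966), Itgb1 like Il1rap (0.957) and Itga2 like Jazf1 (0.983). These are descriptions over libraries that share the 4 population means, and many genes follow such a course.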

How the data were processed

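The authors deposited 1 table of log2 values for 12 libraries, 3 from each of 4 sorted mouse bone marrow populations, made from cDNA that does not mark strand. Trimmomatic, STAR, deepTools and HTSeq are named in the submitters' processing notes with no version; neither those notes nor the file states a genome build or annotation. Each deposited log2 value is that of reads plus 0.5 per 1000000 of a scaled library size: undoing this gave whole reads for 100.0% of values (within 0.001 read). CPM here are those reads over the scaled size, 40263971 to 58553590. The 3 rows that name no gene (no feature 6.65% to 12.6%, ambiguous 3.63% to 4.14%, not unique 8.51% to 12.1%, as percentages of reads) were left out.

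All 14560 genes were fitted with limma 3.58.1 in R 4.3.3 (moderated tests with a mean-variance trend, 1 mean per population, Benjamini-Hochberg, called at adjusted p under 0.05, two-sided). The fits were tested on simulated data. Voom weights, 2 or 5 added reads, other scalings, a low-value filter, no trend, 2 populations alone, a replicate block and leaving out each library were alternatives. Ratios of 2 chains used exact permutation tests. Lengths are from GENCODE M21 (GRCm38).

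The text names all 9 chains, then from each list up to 3 called genes per direction and step with the largest change and a mean of at least 5 CPM in either population, and up to 3 genes most correlated with each chain (for Itgb3 this is not reported here); others are said to be outside this rule. The members and lists were chosen with earlier results of these data known. Markers of basophils, mast cells, neutrophils, monocytes and dendritic cells, megakaryocytes and platelets, erythroid, natural killer and T, B, and stromal and endothelial cells were read as summed CPM.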

Additional observations from a re-analysis of the deposited data

How the results depend on the processing

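Of 1134 combinations of a chain, a comparison and an alternative, 1097 kept direction and call, 19 lost a call, 18 gained one and 0 reversed, and the changes fell on 9 of 54 chain results. The number of chains called, leaving out 1 library at a time, was 2 to 2 for Pro-BMPs against DN-GMPs, 2 to 5 for Pre-BMPs against Pro-BMPs, 8 to 9 for basophils against Pre-BMPs and 4 to 6 for Pre-BMPs against DN-GMPs. It was 9 to 9 for basophils against Pro-BMPs, against DN-GMPs and for the F-test. Pairs with both chains read numbered 3, 3 and 3 in DN-GMPs, Pro-BMPs and Pre-BMPs at 5 CPM, and 2, 2 and 3 at 20 CPM. Replicate numbers did not pair the libraries (correlations of same-numbered deviations -0.0693 to 0.0659). With the replicate block, limma adjusted p was 0.042 for Itga2 in basophils against Pre-BMPs, 0.0313 for Itgb2 in Pre-BMPs against Pro-BMPs, and 0.0359 for Itgb3 and 0.0624 for Itgal in Pre-BMPs against DN-GMPs; the block changed no other chain call. Over all genes 369 were called for Pro-BMPs against DN-GMPs and 228 with these populations alone; 1382 were called for Pre-BMPs against Pro-BMPs and 778 without Pro-BMP replicate 2. Causes were not tested. With 3 libraries a population, and Itga2 at 0 reads in 2 of the 12, changes of low chains have wide intervals.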

Other observations

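Some integrin chains outside the 9 lie beside members in the genome, and their values were looked at after they had been seen. Itga1 (GRCm38 chromosome 13, 114953096 to 115101964) lies next to Itga2 and on the same strand. It stood at 141, 96.4 and 56.3 CPM in basophils and at 0, 0 and 3.10 in Pre-BMPs, with 4.67, 11.8 and 11.3 in DN-GMPs. Basophils lay above DN-GMPs in all libraries, by 3.42 on the log2 scale, but with an SE of 2.34 that difference was not called (limma adjusted p = 0.253). Itgax (chromosome 7, 128129547 to 128150657) and Itgad (128154376 to 128223816) follow Itgam. Itgad stood at 4.65, 8.40 and 2.54 CPM in basophils and at most at 0.0767 in any progenitor library. Itgax stood at 8.35, 14.7 and 1.94 CPM in basophils and at 2.20 to 7.16 in Pre-BMPs, 2 populations that overlapped.

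AlphaE, encoded by Itgae, pairs with beta7 and is known to bind E-cadherin, the CDH1 of the gates. Itgae stood at 12.4, 9.14 and 5.33 CPM in basophils, where Itgb7 and Cdh1 were also highest, at 1053 to 1246 and 884 to 1201. In Pro-BMPs it stood at 1.22, 3.17 and 2.48 and in Pre-BMPs at 0.834, 0 and 0.67. The rise from Pre-BMPs to basophils (5.58 on the log2 scale, limma adjusted p = 0.01) was not called with these populations alone (limma adjusted p = 0.0555).

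Other cell type markers ran as follows, as summed levels. The 10 listed erythroid markers stood at 392 to 477 CPM in Pre-BMPs and 63.1 to 71.9 in basophils, and the 4 listed mast cell markers at 538 to 782 and 10.6 to 30.4. Most of the mast cell sum was Kit, at means of 463 and 22.4 CPM. Its protein c-Kit was used in the gates, so its fall is tied to the sort. All 4 mast cell markers were called lower in basophils than in Pre-BMPs, where 16.5% of all genes were. The 3 listed B cell markers stood at 31.6 to 44.7 and 64.2 to 77.8, and the 3 listed stromal and endothelial markers at 161 to 219 and 343 to 352. The B cell sum was mostly Cd79b, at means of 33.1 and 67.6 CPM. In basophils nearly all of the stromal and endothelial sum was Pecam1, at a mean of 343 CPM. Pdgfrb went the other way, with means of 64.4 CPM in Pre-BMPs and 3.18 in basophils, as did Emcn, with 0.732 and 0.0538.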
